A study of Mus musculus with 113 samples.

Results

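The Hedgehog pathway genes described here are Shh, Ptch1, Smo, Gli1, Gli2, Gli3, Sufu, Hhip and Gas1, 9 genes chosen by symbol among the 23739 symbols of 4 deposited gene tables from a study of mouse embryonic stem cells (mESCs) turning into neural cells. Values were used for 7 of the 9 in the table of SFEB populations (13541 genes), 8 of the 9 in the table of single cells (11449 genes), and all 9 in the adherent table (13738 genes) and the E14 table (23107 genes). Shh and Hhip were not analysed in the SFEB populations, and Hhip was not analysed in the single cells.

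Hedgehog ligands such as Shh bind the receptor Ptch1, which in the absence of ligand holds the membrane protein Smo inactive. Active Smo releases the Gli transcription factors from Sufu, and the Gli factors then switch on targets that include Gli1, Ptch1 and Hhip, so the levels of these 3 are commonly read as a measure of pathway output. In the embryo, Shh from the notochord and floor plate patterns the ventral neural tube.

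R1 mESCs, passaged once without feeder cells, were differentiated in SFEB culture, where cells float as aggregates in medium without serum, or as an adherent monoculture, and both were replated on coated dishes on day 6. The SFEB populations comprised a first series of 14 collection times from 0 to 142 h and a parallel series of 8 times from 0 to 216 h, with 1 library each. The parallel times also gave 64 single cells, 8 per time. The adherent set comprised 15 collection times from 0 to 216 h, again with 1 library each. A separate set compared E14 mESCs, wild type (WT), with an E14 line lacking Fyn (Fyn KO, 1 clone, made by a CRISPR deletion that takes out the start codon and much of the coding region), at days 0 and 4 with 3 replicates each. Fyn, on chromosome 10, encodes a Src-family tyrosine kinase, and its level across the SFEB populations was compared with that of each Hedgehog gene.

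The adherent and E14 values are FPKM, fragments scaled by transcript length and by the mapped total of the library. The SFEB population values are FPKM after a batch correction by the authors, with values below 0 set to 0 here, and the single-cell values were quantile normalized by the authors. None of these tables carries read counts, so the number of reads behind each value is unknown. The paper states only a minimum depth per library, for the single cells and the parallel populations. Marker genes followed the labelled course: over 8 pluripotency genes the summed level in the SFEB populations had a median of 2645 FPKM at 0 to 22 h and 222 FPKM at 126 to 216 h, and over 7 neural progenitor genes it went from 33.2 to 674 FPKM. The 2 h SFEB library held the lowest value of Ptch1, Smo, Gli3 and Sufu in that set. The first and parallel series differed in their floor after the batch correction, since the deposited Foxa2 value was below 0, and set to 0 here, in the parallel 0, 9 and 38 h populations and lay between 1.44 and 2.01 FPKM in the first series at 0 to 22 h. In the E14 set, Snord22, a small nucleolar RNA, took 28.1% and 23.1% of summed FPKM in WT day 4 replicates 1 and 2 and 28.5% in Fyn KO day 4 replicate 2, and no gene took more than 4.39% in the other E14 libraries.

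The promoter windows of 4 genes are shown because they belong to the receptor that is itself a pathway target, Ptch1, and to 3 genes whose levels rose together below, Smo, Gli3 and Gas1. Each is the 250 bases before a RefSeq transcript start, matched exactly and once on the mm9 chromosomes searched, with no annotated exon inside. CG dinucleotides are in capitals.
Ptch1: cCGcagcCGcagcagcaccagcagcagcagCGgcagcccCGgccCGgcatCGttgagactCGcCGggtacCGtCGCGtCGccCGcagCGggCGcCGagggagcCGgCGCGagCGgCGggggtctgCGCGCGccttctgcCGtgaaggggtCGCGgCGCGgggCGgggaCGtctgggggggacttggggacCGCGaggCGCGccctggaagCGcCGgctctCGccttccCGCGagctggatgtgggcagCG
Smo: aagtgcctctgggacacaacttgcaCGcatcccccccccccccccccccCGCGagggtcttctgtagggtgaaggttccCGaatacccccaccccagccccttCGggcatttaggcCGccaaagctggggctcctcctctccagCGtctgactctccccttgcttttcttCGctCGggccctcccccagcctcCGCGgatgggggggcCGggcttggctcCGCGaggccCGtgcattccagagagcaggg
Gli3: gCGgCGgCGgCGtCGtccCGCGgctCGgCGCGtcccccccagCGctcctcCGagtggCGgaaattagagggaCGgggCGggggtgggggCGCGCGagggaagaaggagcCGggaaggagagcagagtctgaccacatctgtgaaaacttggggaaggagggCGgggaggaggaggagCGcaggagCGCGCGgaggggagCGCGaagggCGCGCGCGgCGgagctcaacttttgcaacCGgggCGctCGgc
Gas1: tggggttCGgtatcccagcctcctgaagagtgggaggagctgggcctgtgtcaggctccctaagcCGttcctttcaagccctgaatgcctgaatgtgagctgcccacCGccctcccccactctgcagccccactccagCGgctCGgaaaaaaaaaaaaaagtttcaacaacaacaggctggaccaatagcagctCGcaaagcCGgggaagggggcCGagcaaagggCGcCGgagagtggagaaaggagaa

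The windows lie at chr13:63667044-63667293 (minus strand, Ptch1), chr6:29685247-29685496 (plus strand, Smo), chr13:15555306-15555555 (plus strand, Gli3) and chr13:60278897-60279146 (minus strand, Gas1) of mm9. Those of Smo and Gas1 lie outside the annotated gene, and those of Ptch1 and Gli3 lie inside the annotated span, between exons, because another annotated transcript starts further upstream. Ptch1 held 41 CG dinucleotides, Gli3 34, Smo 15 and Gas1 10, against a median of 6 over the 32851 RefSeq windows of GRCm38.p6. RefSeq windows were matched for 7 of the 9 genes (Shh and Gli1 had none). The Gli binding sequence GACCACCCA was searched on both strands of the 300-base windows, which run 50 bases past the start. It was found in 0 of the 7 windows and in 0.253% of all windows. The GC box GGGCGG was found in 6 of the 7, Smo being the exception, and in 35.7% of all windows.

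Over the SFEB course, the genes that receive and restrain the signal rose while Gli1 and Gli2 fell. Between 0 to 22 h (7 populations) and 126 to 216 h (4 populations), Smo, Gli3, Gas1, Sufu and Ptch1 rose and Gli1 and Gli2 fell, which is 7 of 7 genes past an adjusted p of 0.05 by limma on log2(FPKM + 1). Of all 13363 genes tested, 67.6% passed in the same comparison (37.4% higher and 30.2% lower), and the count is to be read against that share. Their median log2 change was 0.91, beside 0.07 over all genes. The populations are single libraries at different times, so the error is the spread among times inside a window, and the comparisons below share windows.

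Smo (mm9 chr6:29685694-29711365), the transducer at the membrane, ranged from 8.84 to 16.2 FPKM at 0 to 22 h with a median of 11.7 FPKM. It stood at 13.7, 14.5, 18.4, 23.3 and 22.1 FPKM at 34, 38, 42.5, 54.5 and 60 h, and at 60.5, 55.1, 45.2 and 37.2 FPKM at 126, 142, 144 and 216 h. The late populations did not overlap the early ones, and Smo had the highest FPKM of the 7 genes in every population from 54.5 h on except 144 h. The log2 change was 1.90 ± 0.20 (SE, limma adjusted p = 3.64e-08), and 1.60 ± 0.18 was already reached at 68 to 106 h (limma adjusted p = 2.15e-07).

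Gli3 (mm9 chr13:15555068-15821859), the Gli factor that acts mainly as a repressor without ligand, ranged from 2.44 to 5.30 FPKM at 0 to 22 h. At 126, 142, 144 and 216 h it stood at 33.4, 38.0, 18.0 and 11.8 FPKM. All late values were above all early ones, and the first series was higher than the parallel series at nearly the same time (142 and 144 h). The log2 change was 2.17 ± 0.28 (SE, limma adjusted p = 7.40e-07), the largest rise among the 7 genes.

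Gas1 (mm9 chr13:60275766-60278726), a membrane co-receptor that binds Shh, was lowest in the middle of the course. It ranged from 1.87 to 7.30 FPKM at 0 to 22 h, then stood at 1.70, 2.62, 1.39, 2.58 and 3.13 FPKM at 34, 38, 42.5, 54.5 and 60 h, and at 22.7, 34.5, 14.6 and 9.32 FPKM at 126, 142, 144 and 216 h. The fall to 34 to 60 h was -0.75 ± 0.29 on the log2 scale (SE, limma adjusted p = 0.0432; 0.0518 with series as a covariate) and the rise to the last window 1.83 ± 0.31 (limma adjusted p = 1.68e-05). The summed level of 10 feeder fibroblast markers moved with the early part, with a median of 704 FPKM at 0 to 22 h and 39.9 FPKM at 34 to 60 h (10 of 10 genes listed, ranges of 132 to 1046 and 18.6 to 75.6 FPKM). Its part in the Gas1 values was not tested. In these bulk libraries, fewer cells of a type and less RNA per cell cannot be told apart.

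Sufu (mm9 chr19:46471386-46563294), the cytoplasmic inhibitor of the Gli factors, had a median of 7.99 FPKM at 0 to 22 h and 14.6 FPKM at 68 to 106 h, with its highest value of 24.4 FPKM at 103 h. It stood at 17.3, 16.2, 13.9 and 12.4 FPKM in the last 4 populations. The log2 change from the early to the last window was 0.91 ± 0.19 (SE, limma adjusted p = 0.000241).

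Gli1 (mm9 chr10:126766945-126778645), the activator that is also a target, ranged from 8.37 to 15.5 FPKM at 0 to 22 h and stood at 12.2, 6.97, 5.53, 6.50 and 2.83 FPKM at 34, 38, 42.5, 54.5 and 60 h. In the first series it then stayed between 1.45 and 4.20 FPKM from 68 h on. In the parallel series it was 2.94 FPKM at 84 h, 9.90 at 106 h, 10.8 at 144 h and 1.66 at 216 h. The log2 change to 68 to 106 h was -1.58 ± 0.33 (SE, limma adjusted p = 0.000411) and to the last window -1.67 ± 0.37 (limma adjusted p = 0.000443). The summed feeder fibroblast markers (10 of 10 genes listed) were also lower in the later windows, with medians of 704, 39.9, 17.6 and 25.9 FPKM from the first window to the last and last-window values from 12.3 to 108 FPKM, and their part in the Gli1 and Gli2 values was not tested.

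Ptch1 (mm9 chr13:63610261-63674474) had the same 2 high libraries. It ranged from 7.49 to 24.5 FPKM at 0 to 22 h with a median of 14.2 FPKM, reached 28.8 FPKM at 34 h, and stood between 11.7 and 13.9 FPKM at 68 to 103 h. The parallel 106 and 144 h populations then held 34.99 and 50.1 FPKM, against 21.9 and 23.7 FPKM in the first series at 126 and 142 h and 22.1 FPKM in the parallel series at 216 h. The rise to the last window was 0.89 ± 0.30 on the log2 scale (SE, limma adjusted p = 0.0118); with the first series alone it was 0.57 and did not pass (limma adjusted p = 0.101). In the parallel 106 and 144 h populations Foxa2, a floor plate marker, stood at 10.3 and 14.1 FPKM and T, a mesoderm marker, at 27.6 and 19.7 FPKM, beside 3.32 and 2.64 FPKM of Foxa2 and 4.19 and 3.33 FPKM of T in the first series at 126 and 142 h. Foxa2 was highest in the parallel 216 h population, at 18.2 FPKM, where Ptch1 and Gli1 were not high (22.1 and 1.66 FPKM). The summed floor plate list (6 of 8 genes listed) ranged from 7.62 to 39.0 FPKM at 0 to 22 h, from 19.4 to 61.0 at 68 to 106 h and from 53.4 to 297 at 126 to 216 h, and stood at 55.7 and 106 FPKM in those 2 libraries, with 2 of its genes below 0 as deposited in the former and set to 0. It was 297 FPKM in the parallel 216 h population, and 61.0 FPKM in the first series at 103 h, where Ptch1 stood at 11.8 FPKM. The mesoderm list (4 of 5 genes) was highest in the parallel 106 and 144 h libraries, at 37.2 and 24.2 FPKM. T is counted in both the floor plate and the mesoderm list, so these sums are not separate measures. The part of these markers in the Ptch1 and Gli1 values was not tested. Series and culture cannot be told apart.

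Gli2 (mm9 chr1:120730709-120950196), the main activator before Gli1 is induced, changed least. It ranged from 7.54 to 17.5 FPKM at 0 to 22 h and stood at 9.23, 8.01, 9.12 and 4.85 FPKM in the last 4 populations. The fall was -0.63 ± 0.18 on the log2 scale (SE, limma adjusted p = 0.00365), and it did not pass with the first series alone (limma adjusted p = 0.102).

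**Figure D1:**
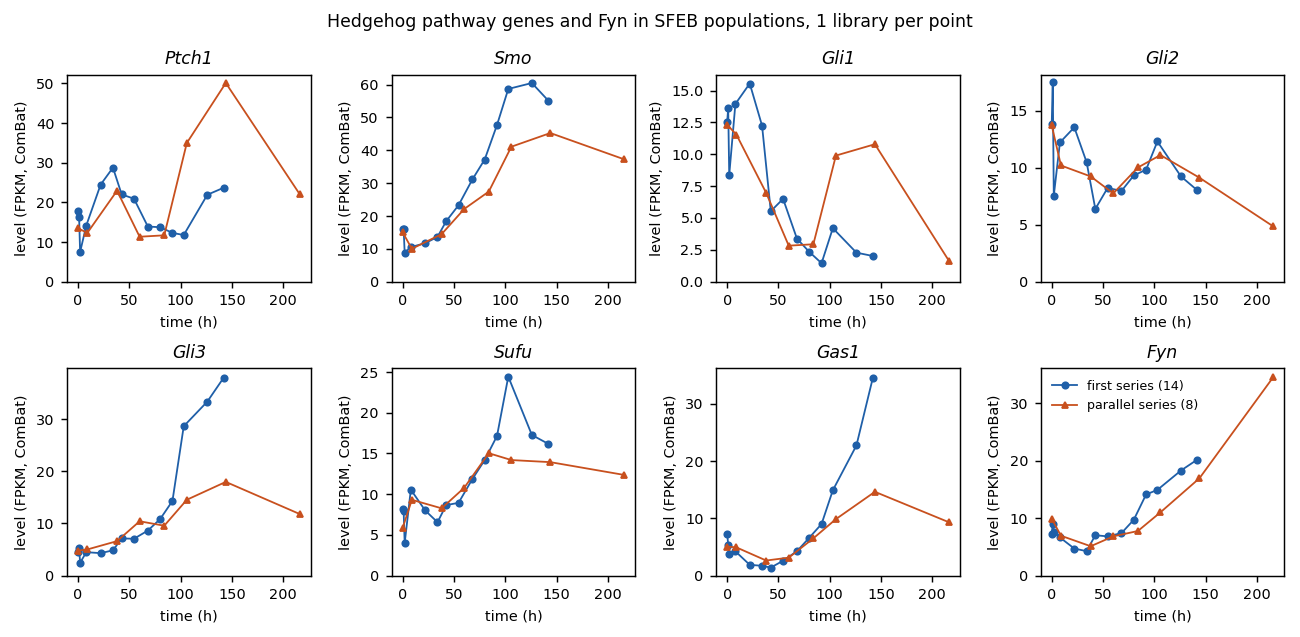
Level of 7 Hedgehog genes and Fyn (vertical axis, batch-corrected FPKM) against collection time (h) in the SFEB populations, with circles for the first series of 14 and triangles for the parallel series of 8. Smo, Gli3 and Gas1 climb in both series, Gli1 drops from between 8.37 and 15.5 FPKM, and the parallel 106 and 144 h libraries stand out for Ptch1 and Gli1.

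The earlier and later steps of the course differed in which genes passed. From 0 to 22 h to 34 to 60 h, Smo rose and Gli1, Gli2 and Gas1 fell, 4 of 7 genes where 37.6% of all genes passed (15.3% higher and 22.3% lower). None of these 4 was called with the first series alone, 2 were called without the parallel 0 h library (Smo and Gli2), and Smo was lost without the 2 h library (limma adjusted p = 0.0702). With 22 h placed in the second window, Smo, Gli1 and Gli2 were lost (limma adjusted p = 0.105, 0.179 and 0.0923). Quantile normalization lost Gli1, Gli2 and Gas1 (limma adjusted p = 0.0817, 0.0540 and 0.124) and gained a rise of Gli3 (0.74, limma adjusted p = 0.0387), and a pseudocount of 0.1 lost Gli1 (limma adjusted p = 0.0652). From 0 to 22 h to 68 to 106 h, 5 of 7 passed (Smo, Gli3, Sufu and Gas1 higher, Gli1 lower) beside 51.6% of all genes (27.2% higher and 24.4% lower), and Gas1 was lost without the parallel 106 and 144 h libraries (limma adjusted p = 0.0613), with the first series alone (0.0543) and with 22 h placed in the second window (0.0624). Without the 2 h library Gli2 also passed from 0 to 22 h to 68 to 106 h, as a fall (-0.38, limma adjusted p = 0.0314). From 68 to 106 h to 126 to 216 h, Gas1, Gli3 and Ptch1 rose, 3 of 7 beside 44.8% of all genes (27.6% higher and 17.2% lower). Gli3 was lost there with quantile normalization (limma adjusted p = 0.0846) and with a pseudocount of 0.1 (limma adjusted p = 0.0501), Ptch1 was lost with the first series alone (limma adjusted p = 0.0696), and Gli2 fell past the threshold with quantile normalization (-0.60, limma adjusted p = 0.0112).

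The other pathway components mostly moved upward. Of 37 further genes (ligands, co-receptors, kinases, ciliary proteins), 35 were tested over the SFEB course; 25 rose and 2 fell between 0 to 22 h and 126 to 216 h, with a median log2 change of 0.57, where 37.4% of all genes were higher and 30.2% lower. The largest rises were in the co-receptor Boc (2.51 ± 0.42 log2, SE), the secreted ligand-release factor Scube2 (2.50 ± 0.44) and the ciliary receptor Gpr161 (1.97 ± 0.20), a negative regulator that raises cyclic AMP. Tulp3, a ciliary trafficking protein, was among the 2 that fell (-0.29 ± 0.10). Of 20 genes listed as targets in neural tissue, 14 were tested, 6 rose and 3 fell, to be read against the same shares of all genes. The largest rises were in the ventral neural transcription factors Nkx6-1 (2.66 ± 0.44), Foxa2 (2.06 ± 0.48) and Nkx6-2 (1.50 ± 0.39), whose early values carry the floor difference between the series noted for Foxa2. Prdm1 (-1.02 ± 0.25), Foxc2 (-0.92 ± 0.23) and Mycn (-0.53 ± 0.16) fell.

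For the 6 Hedgehog genes that spanned at least 4-fold on FPKM + 1 over the 22 populations (all but Gli2), the 3 most similar genes by Pearson's r of log10(FPKM + 1) were as follows. For Smo they were Megf6 (r = 0.98), Hip1 (r = 0.98) and Gpr125 (r = 0.98), and for Gli3 they were Ivns1abp (r = 0.96), Zfyve9 (r = 0.96) and Rnf219 (r = 0.95). Gas1 was most like Smad3 (r = 0.95), Boc (r = 0.95) and Gpc6 (r = 0.95), Sufu like Ppp2r5d (r = 0.94), Pik3r2 (r = 0.93) and Foxm1 (r = 0.93), and Gli1 like Rbm47 (r = 0.94), Mov10 (r = 0.92) and Zyg11a (r = 0.92). Ptch1 had no close match, with r = 0.76 for Sfi1, 0.74 for Arhgap42 and 0.73 for Shisa2. Among the Hedgehog genes themselves, Smo and Gli3 had r = 0.94, Gli3 and Sufu 0.88, Smo and Gli1 -0.71, and Ptch1 and Gli1 0.22. All of these are descriptions over populations that share their collection times.

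Over the SFEB populations, Fyn went with Gas1, Smo, Gli3 and Sufu and against Gli1. Fyn ranged from 4.70 to 9.88 FPKM at 0 to 22 h and stood at 18.3, 20.2, 16.9 and 34.5 FPKM at 126, 142, 144 and 216 h. Pearson's r with Fyn over 22 populations was 0.82 for Gas1 (Spearman's rho = 0.89), 0.75 for Smo (0.78), 0.72 for Gli3 (0.73) and 0.59 for Sufu (0.63), and it was -0.57 for Gli1 (-0.56). These 5 of 7 passed by a two-sided permutation test with 100000 resamples, with adjusted p between 8.83e-05 for Gas1 and Smo and 0.00997 for Gli1. For Ptch1 r was 0.18 (rho = 0.02, permutation p = 0.434) and for Gli2 -0.35 (rho = -0.17, permutation p = 0.106). Of all 13362 genes, 61.2% passed the same test (35.6% with r above 0 and 25.6% below).

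The raw permutation p of r was 2e-05 for Gas1 and Smo, 0.00016 for Gli3, 0.00329 for Sufu and 0.00492 for Gli1, and the smallest that 100000 resamples can give is 1e-05. For rho the permutation p was 1e-05 for Gas1 (adjusted 9.42e-05), 2e-05 for Smo (adjusted 0.000149), 8e-05 for Gli3 (adjusted 0.00042), 0.00214 for Sufu (adjusted 0.00554) and 0.00772 for Gli1 (adjusted 0.0161). A higher r than that of Gas1 was found for 12.5% of genes, and a higher r than that of Smo for 18.1%. Without the 216 and 142 h populations, where Fyn lay farthest from its median, r was 0.91 for Gas1, 0.80 for Smo, 0.79 for Gli3 and 0.65 for Sufu. For Gli1 it was then -0.41 and no longer passed (permutation p = 0.0698). Without the 216 h population alone r for Gli1 was -0.49 and passed (permutation test, adjusted p = 0.0444).

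Within the first series alone (14 populations), r was 0.93 for Gas1, 0.88 for Gli3, 0.85 for Smo, 0.76 for Sufu and -0.78 for Gli1, and these 5 passed beside 46.8% of all genes. Within the parallel series (8 populations) r was 0.75 for Gas1 (exact permutation p = 0.0257, adjusted 0.058), 0.67 for Smo (exact permutation p = 0.0603), 0.53 for Gli3, 0.35 for Sufu and -0.31 for Gli1, and 0 of 7 passed beside 42.2% of all genes (1 of 7, Gas1, at an unadjusted p under 0.05). Fyn itself had r = 0.84 with collection time. After a straight line in time was taken from both genes, r was 0.67 for Gas1 (permutation test, adjusted p = 0.00352), 0.18 for Smo, 0.17 for Gli3 and close to 0 for Sufu (0.00055) and Gli1 (0.0066), and 1 of 7 passed beside 44.6% of all genes. For changes between successive times of a series, 0 of 7 passed by the permutation test beside 13.3% of all genes.

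**Figure D2:**
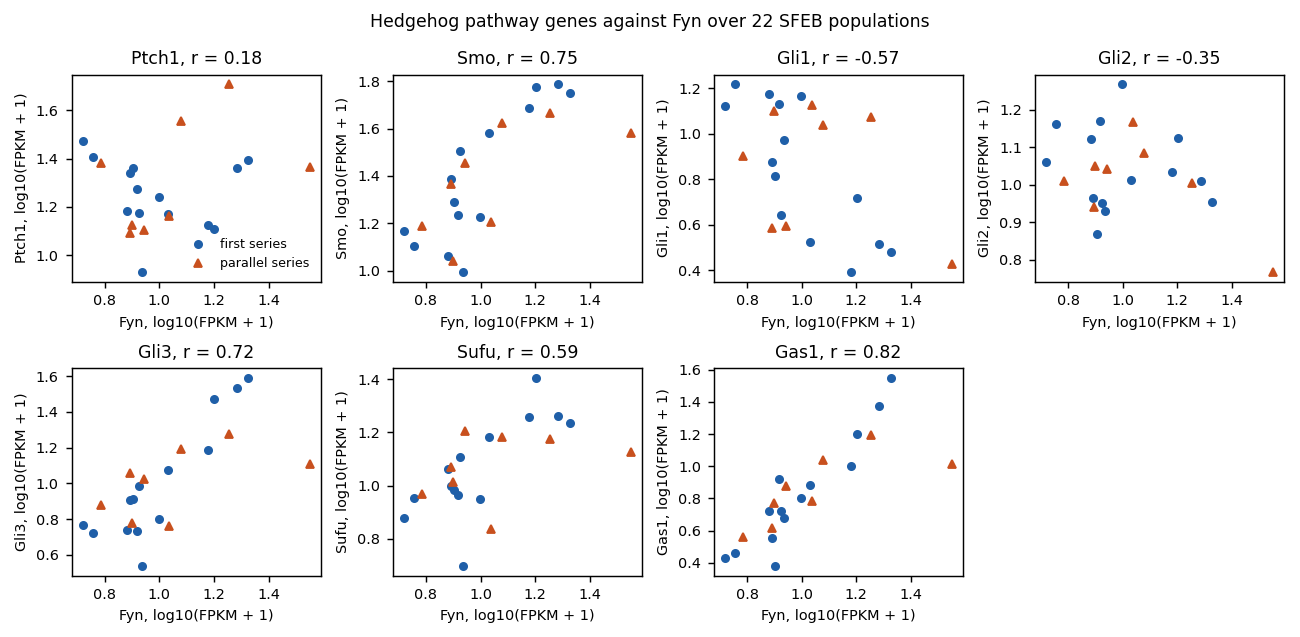
Each Hedgehog gene (vertical axis, log10(FPKM + 1)) against Fyn (horizontal axis, same scale) over 22 SFEB populations, circles for the first and triangles for the parallel series. Gas1 lies closest to a line (r = 0.82), and the 216 h population of the parallel series, with Fyn at 34.5 FPKM, lies apart at the right.

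The adherent monoculture gave all 9 genes and showed the ligand appearing in the last libraries. Shh (mm9 chr5:28783355-28793641) was at most 0.0556 FPKM in the 13 libraries from 0 to 140.5 h and then stood at 11.9 FPKM at 144 h and 4.28 FPKM at 216 h. With only 2 libraries of at least 1 FPKM, Shh stayed outside the test. Ihh, another Hedgehog ligand, was at most 0.757 FPKM to 140.5 h, then 4.23 and 3.25 FPKM. Ptch1, Gli1 and Hhip were higher in these 2 libraries than in the library before, with Gli1 and Hhip still below all 4 libraries from 0 to 20.5 h. Ptch1 was 12.8 FPKM at 140.5 h, 35.4 at 144 h and 34.3 at 216 h. Gli1 was 0.732 FPKM at 140.5 h, 10.7 at 144 h and 5.75 at 216 h. Hhip (mm9 chr8:82490014-82581905), a surface protein that binds and traps the ligand, was 0.141, 0.943 and 0.509 FPKM at those times.

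The 144 h library lies 3.5 h after the one before it, and 97 genes differed at least 4-fold on FPKM + 1 between them, beside 9 between 125.5 and 140.5 h, 141 between 20.5 and 35.5 h and 308 between 41.5 and 53.5 h. Foxa2 was 1.11 FPKM at 140.5 h and 13.6 and 8.17 FPKM at 144 and 216 h, T was 0.489, 22.7 and 11.2 FPKM, and Sox17 was 1.95, 10.9 and 5.42 FPKM. From 68.5 to 101.5 h to 125.5 to 216 h the range of the summed lists went from 10.4 to 21.6 FPKM to 29.4 to 75.2 FPKM for floor plate (6 of 8 genes listed), from 0.911 to 1.62 FPKM to 1.06 to 23.6 FPKM for mesoderm (2 of 5) and from 2.44 to 3.21 FPKM to 5.96 to 36.4 FPKM for endoderm (5 of 6). T is counted in both the floor plate and the mesoderm list here too, so those sums are not separate measures. The part of these floor plate, mesoderm and endoderm markers in the Shh, Ptch1, Gli1 and Hhip values was not tested. The step also coincides with the day of replating, and culture and time cannot be told apart.

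Between 0 to 20.5 h (4 libraries) and 125.5 to 216 h (4 libraries), 7 of the 8 genes tested changed, beside 60.7% of 12879 genes (35.5% higher and 25.3% lower). Their median log2 change was 0.61, beside 0.10 over all genes, and -0.03 over all genes after quantile normalization. Gas1 rose by 2.92 ± 0.24 on the log2 scale (SE, limma adjusted p = 1.67e-07), from 1.41 to 1.82 FPKM early to 14.04, 21.7, 21.5 and 17.2 FPKM. Smo rose by 2.17 ± 0.15 (limma adjusted p = 3.64e-08), from between 9.66 and 14.1 FPKM to 59.0, 61.6, 52.6 and 53.5 FPKM. Gli3 rose by 2.00 ± 0.18 and Sufu by 1.10 ± 0.17. The early and late values of Gas1, Smo, Gli3 and Sufu did not overlap.

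Gli1 fell by 2.35 ± 0.50 on the log2 scale (SE, limma adjusted p = 0.000811), from 21.0, 23.6, 22.0 and 12.1 FPKM to 0.766, 0.732, 10.7 and 5.75 FPKM. Hhip fell by 1.15 ± 0.21, from between 1.20 and 3.24 FPKM to between 0.141 and 0.943 FPKM, and Gli2 fell by 0.49 ± 0.19 (limma adjusted p = 0.0324). The summed feeder fibroblast markers (10 of 10 genes listed) were also lower later, going from between 151 and 436 FPKM early to between 45.8 and 67.8 FPKM in the last window, with medians of 371, 114, 68.4 and 48.7 FPKM over the 4 windows, and their part in the Gli1, Hhip and Gli2 values was not tested. The Gli2 call was lost without the 216 h library (limma adjusted p = 0.0579) and without the 144 and 216 h libraries (limma adjusted p = 0.165). Ptch1 did not pass (log2 change 0.12 ± 0.29, limma adjusted p = 0.735), and without the 144 and 216 h libraries its change was -0.51. Among the further pathway genes 22 of 35 rose and 2 fell, and Boc again rose (3.52 ± 0.34). Of 13 target genes tested, 7 rose and 3 fell. Both counts are to be read against the 35.5% of all genes higher and 25.3% lower.

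At 35.5 to 53.5 h, 3 of 8 genes had changed from the early window (Smo higher, Gli1 and Hhip lower) beside 10.6% of all genes (3.82% higher and 6.79% lower). The Gli1 and Hhip calls were lost with a pseudocount of 0.1 (limma adjusted p = 0.0758 and 0.113) and with quantile normalization (limma adjusted p = 0.0671 and 0.0606). At 68.5 to 101.5 h, 6 of 8 had changed (Smo, Gli3, Sufu and Gas1 higher, Gli1 and Hhip lower) beside 47.5% (25.5% higher and 22.1% lower). Without the 144 and 216 h libraries Ptch1 also passed there, as a fall (-0.59, limma adjusted p = 0.0166). Between 68.5 to 101.5 h and the last window, 0 of 8 passed in limma beside 20% of all genes (14.9% higher and 5.02% lower), with 3 of 8, and 35% of all genes, at an unadjusted p under 0.05.

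Over the 15 adherent libraries r with Fyn was 0.95 for Gas1 (rho = 0.85), 0.91 for Smo (0.81), 0.91 for Gli3 (0.79) and 0.78 for Sufu (0.71), and -0.68 for Hhip (-0.63) and -0.59 for Gli1 (-0.59). These 6 of 8 passed by the permutation test (adjusted p of r from 0.000111 for Gas1 to 0.0382 for Gli1), beside 60.6% of all genes (37.2% with r above 0 and 23.4% below). For Ptch1 r was -0.10 over all libraries and -0.89 without the 144 and 216 h libraries (permutation p = 0.00027), and without those libraries Gas1 kept r = 0.96. Fyn had r = 0.91 with time here, and after a straight line in time was taken out 0 of 8 passed by the permutation test beside 0.0233% of all genes, so this count says nothing particular about the Hedgehog genes.

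**Figure D3:**
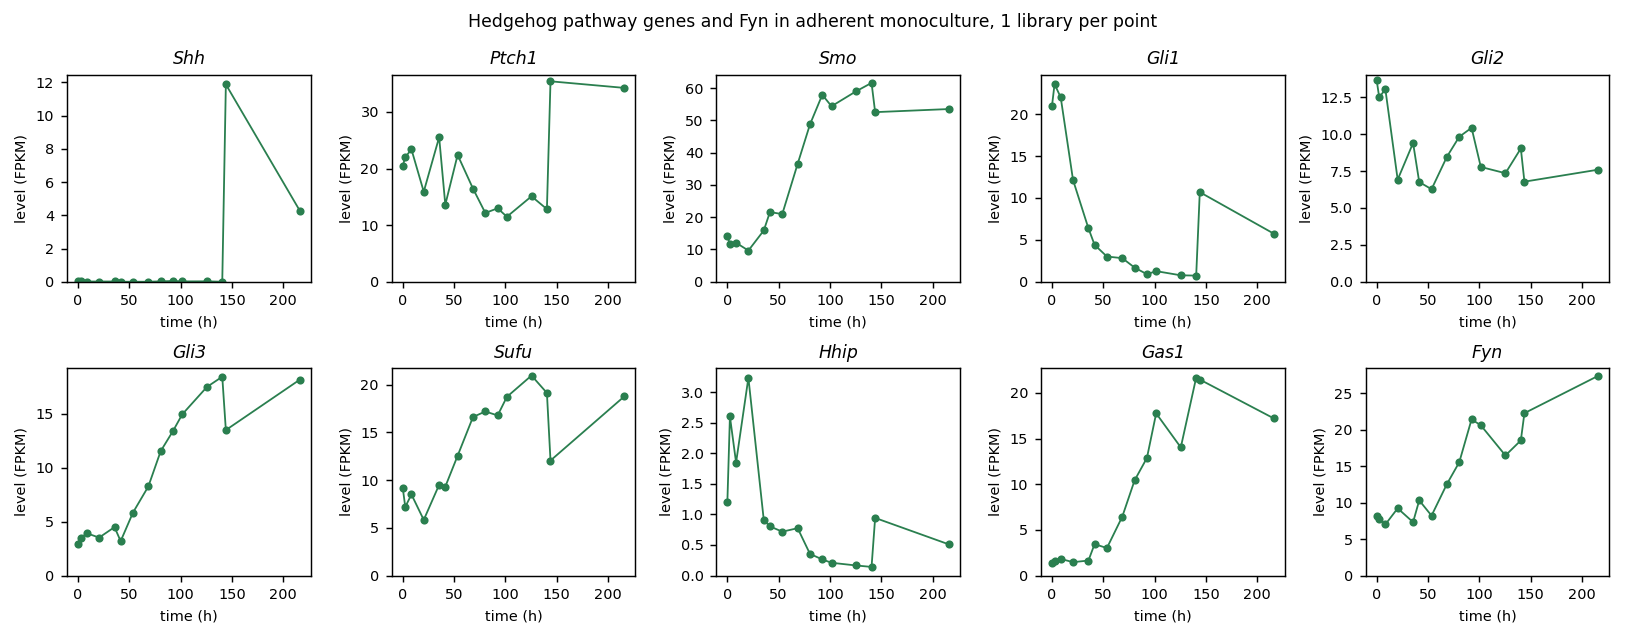
Level of the 9 Hedgehog genes and Fyn (vertical axis, FPKM) against collection time (h) in adherent monoculture, 1 library per point. Shh stays at or under 0.0556 FPKM until 140.5 h and stands at 11.9 FPKM at 144 h, where Ptch1, Gli1 and Hhip are also higher than in the library before.

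In the single cells, Shh exceeded 0.5 RPKM only at 216 h and Gli1 only from 0 to 84 h. The values are log10(RPKM + 1) after quantile normalization between cells, so small positive values are common. A cell is counted here when it exceeds 0.5 RPKM, and counts above 0 are also given for Shh, Gli1, Ptch1 and Smo. At 0.5 RPKM, 45.2% of all gene and cell pairs at 216 h passed and 44.8% at 0 h, a share that the normalization holds nearly fixed. Above 0, the share of pairs was 79.0% at 0 h, 60.6% at 144 h and 69.3% at 216 h. Each time point is 1 sample of 8 cells, so no test between times was made. Cell 16 at 216 h stood apart from the other 7 cells of that time, with the highest Pou5f1, a pluripotency gene, of the 8 (1.94 on the log10 scale) and, alone among them, Foxa2 and Hes5 at 0, and counts that change without it are given.

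Shh exceeded 0.5 RPKM in 0 of 8 cells at each of the 7 times before 216 h, which allows a share of up to 37.5% at each time by a floor of 3 cells (exact 95% upper limit 36.9%), and in 5 of 8 cells at 216 h (62.5%, exact 95% interval 24.5% to 91.5%, counting error only), or 5 of 7 without cell 16. Above 0, it was listed in 6 of 8 cells at 216 h, and its highest value before was 0.061 (at 9 h). The 8 values at 216 h were 1.51 (cell 1), 1.07 (cell 2), 0.87 (cell 6), 0.72 (cell 7), 0.20 (cell 4), 0.02 (cell 12) and 0 in cells 13 and 16. Foxa2 stood at 1.03, 1.73, 2.56, 1.24 and 0.83 in cells 1, 2, 6, 7 and 4, and at 0.54, 0.39 and 0 in cells 12, 13 and 16. Spon1, another floor plate gene, stood at 1.17, 2.22, 2.59, 2.38 and 1.02 in the former 5 and at 0.59, 0.37 and 0.04 in the others. The 5 cells with Shh over 0.5 RPKM thus held the 5 highest values of both genes.

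Gli1 exceeded 0.5 RPKM in 5 of 8 cells at 0 h, in 2 at 9 h, in 1 each at 38, 60 and 84 h, and in 0 of 8 at 106, 144 and 216 h. Its highest value at 216 h was 0.04 and it was listed at 0 in every cell at 144 h, where the population of the same time held 10.8 FPKM. Above 0, Gli1 was listed in 8, 6, 6, 5, 6, 1, 0 and 5 of 8 cells at 0, 9, 38, 60, 84, 106, 144 and 216 h. Ptch1 exceeded 0.5 RPKM in 4 of 8 cells at 216 h, 3 of them just above the limit of 0.18 on the log10 scale (0.19 to 0.21) and 1 at 1.4, and in 6 of 56 before, with values from 0.59 to 1.07. Above 0, Ptch1 was listed in 7, 2, 5, 4, 6, 1, 4 and 7 of 8 cells at the same times. At 106 h the population held 34.99 FPKM of Ptch1 and the mean over the 8 cells was 0.0027 RPKM, and at 144 h the values were 50.1 FPKM and 1.37 RPKM. The cells and the population libraries were normalized separately, so these are given side by side only.

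Smo was the most widely found. It exceeded 0.5 RPKM in 2, 1, 3, 3, 6, 5, 8 and 7 of 8 cells at 0, 9, 38, 60, 84, 106, 144 and 216 h, and its mean over cells went from 0.91 RPKM at 0 h to 64.01 RPKM at 144 h. Gli3 did so in 1, 1, 0, 2, 1, 2, 6 and 3 cells and Sufu in 0, 0, 0, 2, 0, 1, 5 and 4 cells at the same times. Without cell 16, the 216 h counts were 6 of 7 for Smo and 2 of 7 for Gli3. Gas1 exceeded the limit in at most 2 of 8 cells at any time, and Gli2 in between 0 (9 h) and 5 (60 h) with no steady course. Above 0, Smo was listed in all 8 cells at 7 of the 8 times.

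**Figure D4:**
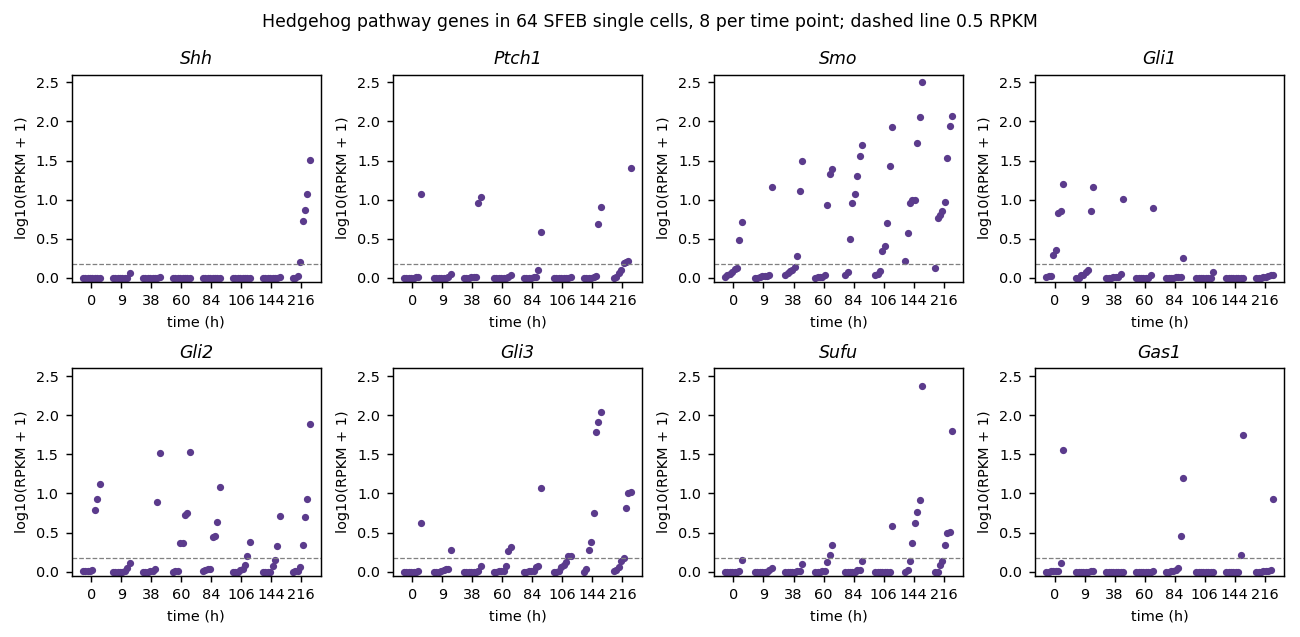
Level of 8 Hedgehog genes in each of 64 single cells (vertical axis, log10(RPKM + 1)), in 8 groups by collection time (h), points sorted within a time; the dashed line marks 0.5 RPKM. Shh lies above the line at 216 h only among the times sampled, in 5 of 8 cells, while Gli1 lies above it in 5 of 8 cells at 0 h and in none from 106 h on.

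In the E14 set the deleted gene was lower in the Fyn KO line. Fyn stood at 3.21, 2.74 and 4.00 FPKM in WT at day 0 and 9.44, 4.54 and 6.76 FPKM at day 4, against 0.598, 0.598 and 1.10 FPKM and 1.19, 1.13 and 1.58 FPKM in Fyn KO. WT and KO values did not overlap on either day. The difference was -1.74 ± 0.24 on the log2 scale at day 4 (SE, limma adjusted p = 0.0193; 0.412 without the 3 Snord22 libraries), and at day 0 it was -1.29 ± 0.24 (limma adjusted p = 0.0601). The day 4 call was kept in 7 of 12 fits without 1 replicate and was lost without WT day 4 replicate 1 or 3 or any Fyn KO day 4 replicate (limma adjusted p from 0.0542 to 0.125).

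From day 0 to day 4 in WT, Smo, Ptch1, Gli3 and Gas1 rose, 4 of the 8 Hedgehog genes tested, beside 25.8% of 12257 genes (15.5% higher and 10.3% lower). The labels do not say whether replicates came from separate cultures, so the p-values measure the spread among these samples only. The median log2 change was 1.55 over the Hedgehog genes and 0.08 over all genes. Smo went from 7.61, 7.46 and 10.3 FPKM to 25.7, 20.9 and 26.0 FPKM (log2 change 1.42 ± 0.25, SE, limma adjusted p = 0.00233). Gli3 went from 1.65, 0.315 and 1.16 FPKM to 11.8, 3.04 and 5.42 FPKM (1.82 ± 0.40, limma adjusted p = 0.00763). Gas1 went from 0.176, 0.180 and 0.428 FPKM to 8.02, 1.78 and 2.24 FPKM (1.79 ± 0.40, limma adjusted p = 0.00815). In each of the 3 genes, all day 4 values lay above all day 0 values. Marker sums also differed between the days in WT, with ranges of 4.06 to 11.9 and 24.4 to 189 FPKM for neural progenitor (7 of 7 genes listed), 0.680 to 1.17 and 3.57 to 10.8 FPKM for feeder fibroblast (10 of 10) and 1.18 to 4.58 and 3.20 to 29.9 FPKM for endoderm (6 of 6). Ranges were 14.7 to 25.6 and 170 to 380 FPKM for epiblast (4 of 4), and 3617 to 4520 and 836 to 2188 FPKM for pluripotency (8 of 8). The part of these markers in the Hedgehog gene values was not tested.

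Ptch1 went from 5.15, 6.19 and 7.84 FPKM to 17.8, 39.6 and 15.95 FPKM (log2 change 1.68 ± 0.49, SE, limma adjusted p = 0.0266), again with no overlap. That call was lost without WT day 0 replicate 1, 2 or 3 or WT day 4 replicate 2 (limma adjusted p = 0.069, 0.0747, 0.0519 and 0.0929). Gli1 went from 1.57, 0.269 and 0.210 FPKM to 4.38, 6.70 and 2.13 FPKM with no overlap, and did not pass (1.68 ± 0.75, limma adjusted p = 0.119). Without Fyn KO day 0 replicate 3, which held 19.0 FPKM of Gli1 beside 2.15 and 0.772 in the other Fyn KO day 0 libraries, the WT change of Gli1 passed (limma adjusted p = 0.019). Without the 3 Snord22 libraries, which leaves 1 WT day 4 library assumed to vary like the others, 0 of the 7 Hedgehog genes still tested passed in limma (3 at an unadjusted p under 0.05) and 673 of all genes did, against 3166 with all libraries. The log2 change was then 1.53 for Smo (limma adjusted p = 0.0523), 1.71 for Gli3 (0.0724) and 1.21 for Ptch1 (0.0929), and Gas1 no longer met the minimum level for testing.

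In Fyn KO, Smo rose, 1 of 8 genes beside 19.3% of all genes (11.8% higher and 7.56% lower), with medians of 0.65 and 0.05. It went from 4.48, 3.35 and 7.74 FPKM to 16.6, 13.5 and 20.4 FPKM (log2 change 1.57 ± 0.25, SE, limma adjusted p = 0.00199). Gli3 stood at 1.21, 0.544 and 1.98 FPKM and then 2.77, 3.24 and 3.51 FPKM without overlap, and did not pass (0.94 ± 0.40, limma adjusted p = 0.118). Gas1 stood at 0.697, 0.144 and 0.780 FPKM and then 0.702, 0.907 and 1.88 FPKM (0.48 ± 0.40, limma adjusted p = 0.422). In Fyn KO at day 4 the summed markers ranged from 10.8 to 32.8 FPKM for neural progenitor, from 6.38 to 11.7 FPKM for feeder fibroblast and from 0.266 to 5.80 FPKM for endoderm, and their part in these values was not tested. Ptch1 stood at 10.4, 14.5 and 20.9 FPKM and then 18.2, 81.4 and 24.3 FPKM (1.12 ± 0.49, limma adjusted p = 0.127). Without Fyn KO day 0 replicate 3, Gli1 also passed in Fyn KO (1.85, limma adjusted p = 0.0221).

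The day 4 changes of Fyn KO and WT were not shown to differ for any Hedgehog gene. The largest difference of changes was that of Gas1, -1.31 ± 0.56 (SE, limma adjusted p = 0.997, unadjusted p = 0.0393). In this comparison 0 of 8 Hedgehog genes and 0% of 12257 genes passed in limma, with 537 genes at an unadjusted p under 0.05.

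Between Fyn KO and WT at the same day, 0 of 8 Hedgehog genes passed in limma on either day, where 0.171% of all genes passed at day 0 (0.0408% higher and 0.131% lower in Fyn KO) and 0.0734% at day 4 (0.00816% higher and 0.0653% lower). At an unadjusted p under 0.05 there were 3 of 8 at day 0 (Gli2, Ptch1 and Smo), beside 14.6% of all genes, and 1 of 8 at day 4 (Gas1), beside 12.1%. Gli2 stood at 44.9, 35.9 and 27.9 FPKM in Fyn KO at day 0 and 22.8, 15.3 and 11.5 FPKM in WT, without overlap (log2 difference 1.11 ± 0.38, SE, limma adjusted p = 0.21). Ptch1 at day 0 was also without overlap, 10.4 to 20.9 FPKM against 5.15 to 7.84 FPKM (1.10 ± 0.49, limma adjusted p = 0.332). At day 0 the summed neuron markers (6 of 6 genes listed) ranged from 121 to 206 FPKM in Fyn KO and from 24.4 to 86.3 FPKM in WT. The other marker lists overlapped between the lines at day 0, and the part of the neuron markers in the day 0 values was not tested. Sufu stayed between 5.85 and 13.97 FPKM in all 12 libraries, Hhip between 0.0136 and 2.105 FPKM, and Shh at most 0.116 FPKM. With 3 replicates of 1 clone, a difference between the lines and a difference between clones cannot be told apart.

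Of the 32 further pathway genes tested, 1 differed between the lines on each day; both are named because of their values. Gpc3, a glypican that binds Hedgehog ligand at the cell surface and limits it, stood at 27.8, 26.2 and 57.5 FPKM in Fyn KO at day 0 and 5.01, 1.71 and 5.36 FPKM in WT (log2 difference 2.93 ± 0.38, SE, limma adjusted p = 0.0127). At day 4 the lines overlapped, with 30.9, 30.1 and 52.2 FPKM in Fyn KO and 30.3, 40.5 and 54.0 FPKM in WT. Prkaca, the catalytic subunit of protein kinase A, which phosphorylates Gli factors, stood at 17.6, 19.1 and 19.9 FPKM in Fyn KO at day 4 and 44.0, 34.8 and 39.2 FPKM in WT (-1.02 ± 0.13, limma adjusted p = 0.00811). Both calls were kept in 11 of 12 fits without 1 replicate, and were lost without WT day 0 replicate 2 for Gpc3 (limma adjusted p = 0.0531) and without Fyn KO day 4 replicate 1 for Prkaca (limma adjusted p = 0.0596), as well as without the 3 Snord22 libraries (limma adjusted p = 0.0809 and 0.412). The difference of the day 4 changes was -3.08 ± 0.54 for Gpc3 (SE, limma adjusted p = 0.577). In WT, 7 of 32 further pathway genes rose and 0 fell from day 0 to day 4, beside 15.5% of all genes higher, and in Fyn KO 4 of 32 rose and 0 fell, beside 11.8% of all genes higher. The difference between these counts was not tested.

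**Figure D5:**
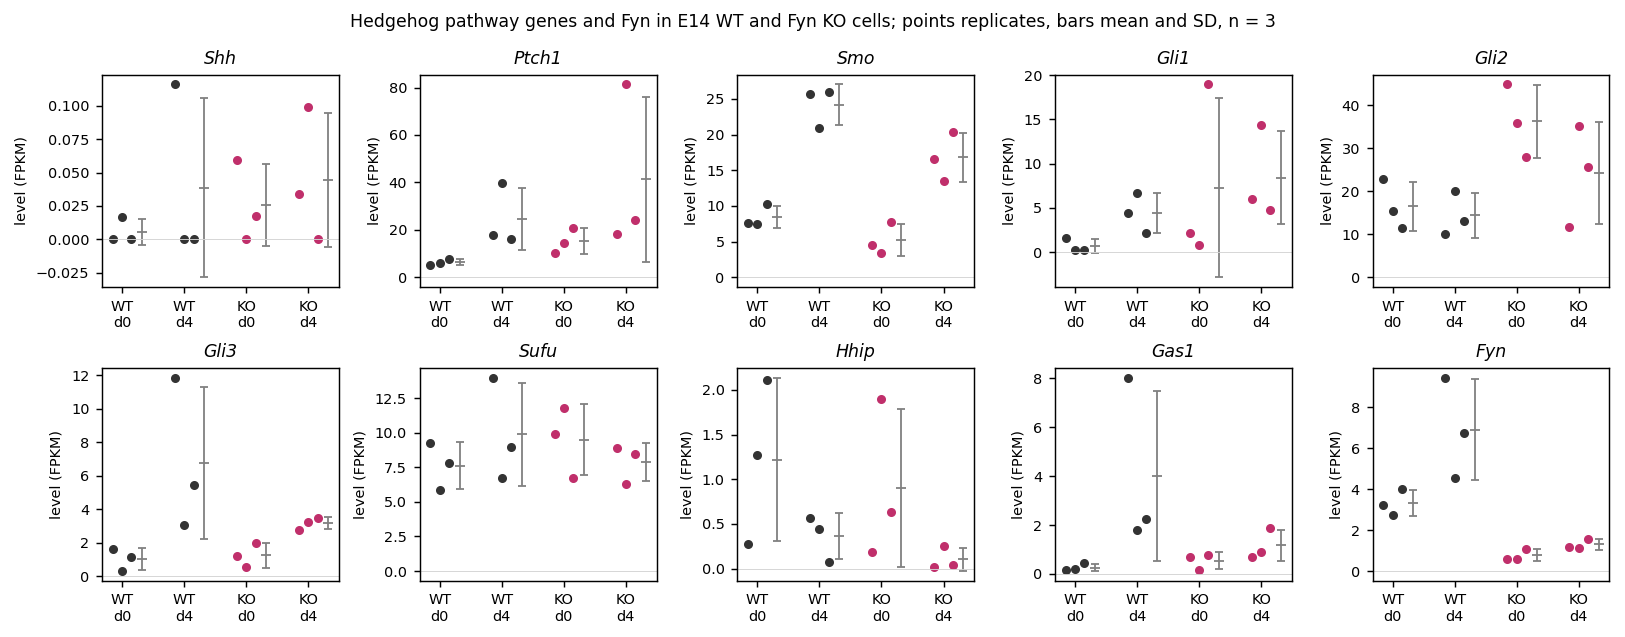
Level of the 9 Hedgehog genes and Fyn (vertical axis, FPKM) in E14 WT and Fyn KO cells at days 0 and 4 (d0, d4); points are the 3 replicates of each group and bars the mean and SD. Smo is higher at day 4 in both lines, and Fyn KO values of Fyn, 0.598 to 1.58 FPKM, all lie under the WT values.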

How the data were processed

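Mouse mESC populations, single cells and E14 lines were profiled by RNA-seq. The labels name TopHat2 2.0.8b and Cufflinks 2.1.1 with mm9 (mm10 for E14), while the methods name other versions. The deposited SFEB population values are FPKM that the authors had corrected for batch with ComBat and are treated here as a score, since 1256 values were below 0 and were set to 0; the batches are not given in the sources used here. The deposited single-cell values are log10(RPKM + 1), which the authors quantile normalized. The deposited adherent and E14 values are FPKM as the authors computed them. No table gives read counts, so no count test was run.

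Levels were tested with limma 3.58.1 (R 4.3.3) on log2(FPKM + 1), with a trended prior, for genes with 3 or more samples at 1 FPKM or above, with Benjamini-Hochberg adjustment over all genes tested and a threshold of 0.05. A fold on this scale understates the change of low genes. Correlations used log10(FPKM + 1) and two-sided permutation tests (NumPy 2.4.6), exact for 8 populations. The E14 labels give replicate numbers without a stated source. Deviations of same-numbered samples from their group means were correlated as a check. All correlations were over 0.1 between WT day 0 and day 4 (0.199, 0.22 and 0.224) and between the lines at day 4 (0.136, 0.258 and 0.24). They were at most 0.0899 between Fyn KO day 0 and day 4, and from -0.115 to 0.339 between the lines at day 0. WT day 0 and Fyn KO day 4, which pair if the former comparisons both do, gave 0.111, 0.0023 and 0.0326. The check therefore does not settle whether the numbers pair the samples. The scripts were tested on simulated data. Named genes are the 9 Hedgehog genes, Fyn, the 3 genes most like each Hedgehog gene that spanned at least 4-fold in SFEB, and up to 3 genes each way of the further pathway and target lists. Some genes of these lists are not reported here. The Hedgehog genes and all lists were chosen with earlier results of these data known. RefSeq promoter windows were matched to mm9 as exact sequence. Feeder fibroblast, pluripotency, epiblast, neural progenitor, neuron, floor plate, mesoderm and endoderm marker lists were summed per library; in the SFEB populations at 34 to 60 h the epiblast sum ranged from 284.7 to 653 FPKM, the neuron sum went from between 137 and 254 FPKM early to between 315 and 893 FPKM at 126 to 216 h, and the endoderm sum was at most 3.53 FPKM.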

Additional observations from a re-analysis of the deposited data

Results flagged for a closer look

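In 33 of the 58 groups of 8 single cells that could be tested, the highest cell stood apart from the other 7 by more than Dixon's 95% critical value of 0.526, where chance alone marks about 1 group in 20 if values are normally distributed. In 27 of the 33 the next cell was at or below 0.5 RPKM, and in 8 it was at 0, so the marks are a description of sparse values. Each value is the highest cell's log10(RPKM + 1). For Shh it was 0.061 at 9 h, 0.00557 at 38 h and 0.0112 at 144 h. For Ptch1 it was 1.07 at 0 h, 0.0532 at 9 h, 0.0393 at 60 h, 0.59 at 84 h, 0.00928 at 106 h and 1.4 at 216 h. For Smo it was 1.16 at 9 h. For Gli1 it was 1.01 at 38 h, 0.90 at 60 h, 0.25 at 84 h and 0.0732 at 106 h. For Gli2 it was 0.11 at 9 h and 0.72 at 144 h. For Gli3 it was 0.63 at 0 h, 0.28 at 9 h, 0.0771 at 38 h and 1.07 at 84 h. For Sufu it was 0.15 at 0 h, 0.0466 at 9 h, 0.0978 at 38 h, 0.14 at 84 h, 0.58 at 106 h, 2.37 at 144 h and 1.79 at 216 h. For Gas1 it was 1.55 at 0 h, 0.00126 at 38 h, 0.0106 at 60 h, 1.20 at 84 h, 1.74 at 144 h and 0.93 at 216 h.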

How the results depend on the processing

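In the SFEB populations the number of Hedgehog genes called at 34 to 60 h was 4 and became 2 with quantile normalization, 2 without the parallel 0 h library, 0 with the first series only and 1 with 22 h placed in the second window. In the adherent libraries the count at 35.5 to 53.5 h was 3 and became 1 with a pseudocount of 0.1 and 1 with quantile normalization. Without the 3 E14 libraries high in Snord22, the count in WT became 0. Leaving out 1 replicate gave counts of 3 to 5 in WT and 1 to 2 in Fyn KO. Against Fyn over the SFEB populations the count of 5 became 1 with residuals from a line in time, 0 with changes between times and 0 with the parallel series only; over the adherent libraries the count of 6 became 0 with residuals and 0 with changes. At 216 h, 6 cells held Shh above 0 and 2 above 10 RPKM. The cause of these changes was not tested, beyond the smaller number of samples where libraries were left out.

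Signs that turned, on the log2 scale, were those of Ptch1 at 68 to 106 h in SFEB (-0.21 with the first series only, -0.085 without 2 h, -0.17 without parallel 106 and 144 h), and between the last windows Gli1 (0.13 without 216 h) and Sufu (0.00023 without 216 h, 0.032 with the first series only). In the adherent libraries they were Ptch1 (0.088 at 35.5 to 53.5 h with quantile normalization; -0.081 without 216 h and -0.51 without 144 and 216 h in the last window), and between the last windows Gli1 (-0.56 without 144 and 216 h), Sufu (-0.12 with quantile normalization, -0.030 without 216 h) and Hhip (-0.035 with a pseudocount of 0.1, -0.013 without 216 h, -0.26 without 144 and 216 h). None of these passed the test before or after. In E14, leaving out 1 replicate gave ranges that crossed 0 for Gli2 in WT (-0.45 to 0.052), for Gli3 (-0.14 to 0.39) and Hhip (-0.58 to 0.064) between lines at day 0, for Ptch1 (-0.090 to 0.96) and Sufu (-0.47 to 0.0051) at day 4, and for the difference of changes of Smo (-0.074 to 0.43), Gli1 (-1.57 to 0.18) and Hhip (-0.36 to 0.29; 0.16 without the Snord22 libraries). For r with Fyn over SFEB, Ptch1 turned to -0.31 with residuals, -0.27 with changes and -0.18 with the first series only, Gli1 to 0.0066 and Gli2 to 0.27 with residuals, Gli2 to 0.027 without the 2 far samples, and Sufu to -0.0072 with changes. Over the adherent libraries Gli1 turned to 0.071, Gli3 to -0.33, Sufu to -0.31 and Hhip to 0.29 with changes, and Gli2 to 0.19 with residuals.

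Over all genes, quantile normalization moved the split of calls from 2038 higher and 2982 lower to 2858 and 2287 in SFEB at 34 to 60 h, from 3682 and 2298 to 2816 and 3213 between the last SFEB windows, from 492 and 874 to 747 and 440 in the adherent libraries at 35.5 to 53.5 h, and from 1925 and 647 to 1314 and 1058 between the last adherent windows. Between the last SFEB windows the first series alone called 1912 and 1175, and between the last adherent windows 280 and 37 were called without 144 and 216 h and 864 and 206 without 216 h. In E14, the 3166 genes called in WT became 673 without the Snord22 libraries and 1831 and 1991 without WT day 0 replicates 2 and 3, and the 2370 called in Fyn KO became 1281 and 1041 without its day 0 replicates 1 and 2 and 1150 without its day 4 replicate 3. Between the lines at day 0, 21 genes became 128 without WT day 0 replicate 1, 4 without WT day 0 replicate 2, 35 with no filter, 38 with the replicate block and 6 without the Snord22 libraries; at day 4, 9 became 24 with no filter, 17 with quantile normalization, 5 without Fyn KO day 4 replicate 1, 14 without WT day 4 replicate 3 and 0 without the Snord22 libraries. The difference of changes went from 0 to at most 4 (without WT day 0 replicate 1).

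In the 2 comparisons whose replicate numbers paired the samples, WT from day 0 to day 4 and the lines at day 4, the replicate block changed no call of a Hedgehog gene, of Fyn or of Prkaca (all genes 3563 against 3166 and 10 against 9). In the others the samples share only a number. With the replicate block there, 1 Hedgehog gene was called in Fyn KO and 0 between the lines at day 0, as without it, Fyn at day 0 passed between the lines (-1.29, limma adjusted p = 0.0436), further pathway genes called in Fyn KO went from 4 to 6, and the difference of changes went from 0 to 2 of all genes, 1 of them the pathway gene Gpc3 (limma adjusted p = 0.0468). The alternatives without the 2 h sample, without parallel 106 and 144 h, without adherent 144 and 216 h and without the Snord22 libraries were chosen after seeing the data.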
